A study of Mus musculus with 8 samples.

Results

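The 36 genes described here make or move bile acids in the liver. They were taken by name, by a rule that uses no measured value, though with earlier results of these data known. They comprised 10 enzymes and proteins of bile acid synthesis, 6 carriers that take up bile acids or other organic anions from blood, 8 transporters of the canalicular membrane, 4 exporters of the basolateral membrane, the carnitine carrier Slc22a5 and 7 receptors that regulate the pathway. All 36 were named on the array, out of 21368 named genes, by 42 probes, and 26 of them were among the 11072 genes tested. Hepatocytes were isolated from 4 hCNR1+/+ and 4 hCNR1-/- mice, the latter lacking the cannabinoid 1 receptor gene Cnr1 in hepatocytes. Both genotypes were male littermates on a standard diet, labelled as 12 to 14 weeks old. Both came from crossing animals with floxed Cnr1 alleles to animals that carry Cre under the albumin promoter, which is active in hepatocytes. The strain is labelled CNRO Alb-Cre for hCNR1-/- and CNRO for hCNR1+/+ mice. By these labels the presence of Cre cannot be told apart from the loss of Cnr1. RNA of each mouse was hybridised to 1 array with 1 colour.

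Bile acids are made from cholesterol in hepatocytes, either by the classic pathway, which begins with Cyp7a1, or by the alternative pathway through Cyp27a1 and Cyp7b1. They are conjugated with taurine or glycine, pumped across the canalicular membrane into bile, reabsorbed in the intestine and taken up again from portal blood. The receptor FXR (Nr1h4) senses them and, through SHP (Nr0b2) and through the intestinal hormone Fgf15 acting on Fgfr4 with Klb, lowers their synthesis.

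Levels are given throughout as relative log2 signal, which is the log2 of the background-corrected spot intensity minus the 75th percentile of the same array, so that a value of 0 is a probe at that percentile. Levels of probes of different genes were not set against each other, and probes of the same gene were ranked only by brightness. All arrays lay on 1 slide, with hCNR1+/+ in row 1 and hCNR1-/- in row 2, so that the row on the slide cannot be told apart from the genotype. Across arrays the 75th percentile of intensity spanned 62.0 to 139 for hCNR1+/+ and 29.3 to 124 for hCNR1-/- mice, and 28.6% to 42.3% of spots were well above background, both lowest in hCNR1-/- replicate 4. The correlation of that array with the others of its genotype averaged 0.942, against 0.964 to 0.980 for the other 7 arrays, and values without it are given beside the results it bears on most. The probe of Cnr1 itself was well above background on 0 of 4 arrays of each genotype, and the genotypes were taken from the labels. Of 15 hepatocyte markers, 13 were tested and were well above background on all 8 arrays, and their mean relative log2 signal spanned 8.16 to 8.85 for hCNR1+/+ and 8.16 to 8.49 for hCNR1-/- mice. In hCNR1-/- mice 6 of them were higher and 7 lower (2 and 11 without scaling between arrays). Apob was higher at an adjusted limma p of 0.0477 (log2 fold change 1.63), where 4.24% of all tested genes were called at 0.05. Pck1 of this list is also 1 of the periportal genes given below.

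Most of the group was measured in both genotypes. A probe was well above background on all 8 arrays for 22 genes, on 7 arrays for Baat and Slc22a5 (all but hCNR1-/- replicate 4), and on 5 arrays for Abcb1b and Slc51b. The other 10 genes were below the minimum of 4 arrays and were not tested. Cyp7a1, the rate-limiting enzyme of the classic pathway, was well above background on 0 of 8 arrays, as were the steroid reductase Akr1d1, the organic anion carrier Slco1a4, the exporter subunit Slc51a and the canalicular flippase Atp8b1. Slco1a1, Klb, Abcb1a and Abcc4 were well above background on 1 array of each genotype. Nr0b2 was well above background only on hCNR1+/+ replicate 4.

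**Figure D1:**
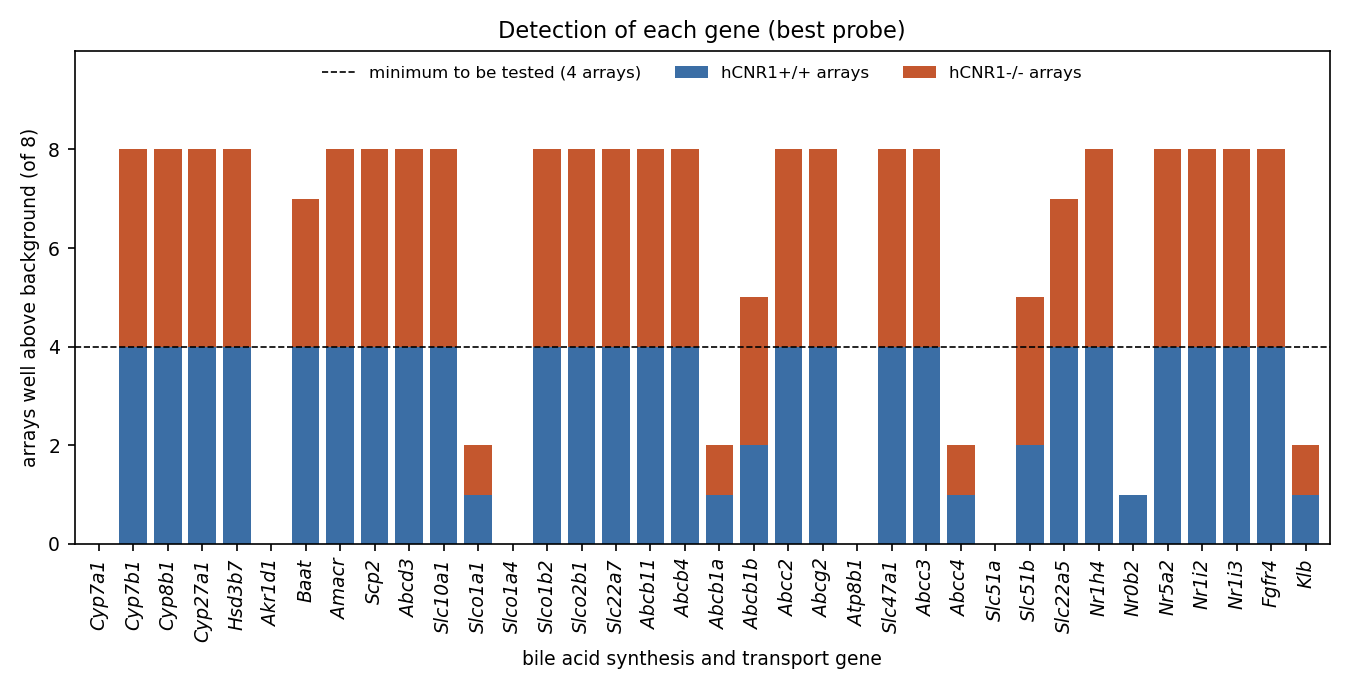
Number of arrays, of 8, on which the best probe of each of the 36 genes was well above background, with hCNR1+/+ arrays below and hCNR1-/- arrays above in each bar. Bars under the dashed line at 4 arrays mark the 10 genes that were not tested, among them Cyp7a1 with no bar, and only Nr0b2 had a bar from 1 genotype alone.

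Abcc2 and Abcb1b, both canalicular transporters, were higher in hCNR1-/- hepatocytes at an adjusted p below 0.05 (limma, Benjamini-Hochberg over all tested genes), and no gene of the group was lower at that threshold. These were 7.69% of the 26 tested genes, where 4.24% of all tested genes were called, 2.94% higher and 1.3% lower. A fold change above 2 with an unadjusted p below 0.05 was met by 4 genes that were higher (Abcb1b, Abcc2, Slco1b2 and Nr5a2) and by 0 that were lower, which is 15.4% of the group beside 8.53% of all tested genes, 4.78% higher and 3.75% lower. At an unadjusted p below 0.05 alone, 6 genes were higher and 1 was lower, or 26.9% against 21.6% of all tested genes, 14.7% higher and 6.92% lower. The values of the 2 genotypes did not overlap for 5 genes that were higher and 1 that was lower, or 23.1% against 17.8%, 12.7% higher and 5.04% lower. The signal was lower in hCNR1-/- for 14 genes and higher for 12, with a median log2 fold change of −0.11, beside 0.08 over all tested genes. Leaving out any of replicates 1 to 3 of either genotype left 0 genes of the group higher at the adjusted threshold, leaving out hCNR1+/+ replicate 4 left 1, and leaving out hCNR1-/- replicate 4 left 2, with 1 lower. The median also turned to 0.10 without hCNR1-/- replicate 4, beside 0.18 over all tested genes. In RNA of a whole preparation, fewer cells of a type and less RNA per cell cannot be told apart.

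**Figure D2:**
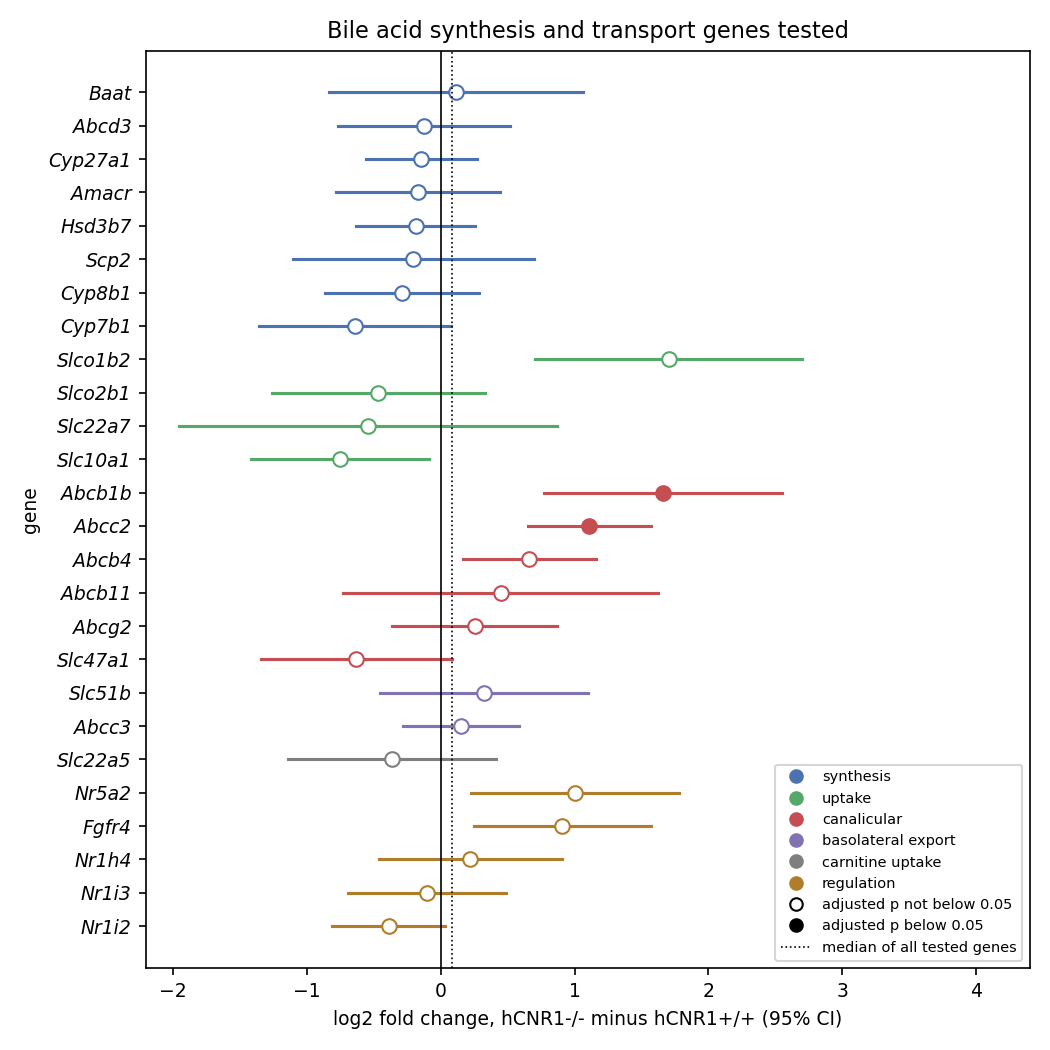
Log2 fold change of each tested gene (points), hCNR1-/- minus hCNR1+/+, with 95% confidence intervals from limma (lines), coloured by role and filled where the adjusted p was below 0.05. Abcb1b and Abcc2 are the filled points, 7 of the 8 synthesis genes lie left of 0 (8 under 3 other scalings) and 5 of the 6 canalicular transporters lie right of 0 (3 without scaling between arrays).

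The canalicular membrane held both genes that passed the adjusted threshold. Of its 8 transporters 6 were tested, 5 with a higher and 1 with a lower signal in hCNR1-/- mice (3 and 3 without scaling between arrays), and the median log2 fold change was 0.56. Over all 11072 tested genes, 6264 had a higher signal and 4808 a lower one, with a median of 0.08. Abcc2 (MRP2) pumps conjugated bilirubin, glutathione conjugates and other organic anions into bile. Its relative log2 signals were 2.05, 2.20, 1.97 and 2.43 on the hCNR1+/+ arrays and 3.47, 3.11, 3.45 and 3.06 on the hCNR1-/- arrays, given in the order of the replicate numbers here and for every gene that follows. Every hCNR1-/- array was above every hCNR1+/+ array. Abcc2 rose by 1.11 on the log2 scale (SE 0.21, n = 4 per genotype), or 2.16-fold, with an adjusted p of 0.0258 from limma and an exact permutation p of 0.0286, the smallest 4 against 4 arrays allow. Without hCNR1-/- replicate 4 the rise was 1.18 with an adjusted limma p of 0.0119. The adjusted p ran from 0.00118 to 0.845 over 19 alternatives and stayed below 0.05 in 7 of them, with log2 fold changes of 0.56 to 1.27. It was 0.0631, 0.0633 and 0.105 without hCNR1+/+ replicates 1, 2 and 3 in turn, and 0.0804, 0.0597 and 0.0813 without those of hCNR1-/-.

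Abcb1b, which encodes a P-glycoprotein that exports drugs and other hydrophobic compounds, had relative log2 signals of −2.46, −2.01, −1.65 and −3.57 in hCNR1+/+ and −0.25, −0.82, −1.0 and −0.96 in hCNR1-/- mice. The genotypes did not overlap. The probe was dim and carried the flag for a signal well above background on 2 hCNR1+/+ and 3 hCNR1-/- arrays. Abcb1b rose by 1.66 on the log2 scale (SE 0.40), or 3.16-fold, with an adjusted limma p of 0.0492 and an exact permutation p of 0.0286. The adjusted p was below 0.05 in 3 of 18 alternatives. The rise was 1.73 without hCNR1-/- replicate 4 (adjusted limma p 0.0396), 1.28 without hCNR1+/+ replicate 4 (0.0594), and 0.55 with another background correction (0.347). Without hCNR1+/+ replicates 1, 2 and 3 in turn the adjusted limma p was 0.103, 0.0809 and 0.0807, and without those of hCNR1-/- it was 0.129, 0.113 and 0.103. The closely related gene Abcb1a stayed below the minimum for testing, between −3.13 and −2.13 on the 8 arrays. How far the probe of either gene also reads the other was not tested.

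Abcb4, the third gene of the same chromosome 5 neighbourhood, moves phosphatidylcholine into bile. Its signals were 5.80, 5.14, 5.62 and 5.75 in hCNR1+/+ and 6.45, 5.98, 6.22 and 6.31 in hCNR1-/- mice. The groups did not overlap, but the difference of 0.66 (SE 0.22) had an adjusted limma p of 0.121 and did not pass. Abcb11, the bile salt export pump, had signals of 1.63, 1.84, 2.03 and 3.90 in hCNR1+/+ and 2.64, 3.18, 3.47 and 1.91 in hCNR1-/- mice. Replicate 4 was the highest hCNR1+/+ array and the lowest hCNR1-/- array. The difference of 0.45 had a 95% interval of −0.73 to 1.63 and an adjusted limma p of 0.654, and it was −0.11 where the arrays were not scaled to each other. Without hCNR1-/- replicate 4 the difference was 0.75 (adjusted limma p 0.37), without hCNR1+/+ replicate 4 it was 0.97 (0.197), and with array weights it was 1.07 (0.033). The urate and sulfate conjugate exporter Abcg2 differed by 0.25 and the organic cation exporter Slc47a1 by −0.63, with adjusted limma p of 0.626 and 0.287.

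The sequences before the start of these genes are shown because Abcc2 and Abcb1b rose and because Abcb1a, Abcb1b and Abcb4 follow each other in that order on mouse chromosome 5. Each line gives the 250 bases before the annotated start, 5′ to 3′ on the strand of the gene, from RefSeq on the assembly GRCm38.p6, and capitals mark the half-site AGGTCA of nuclear receptors on either strand.
Abcc2, chr19:43782058-43782307, plus strand: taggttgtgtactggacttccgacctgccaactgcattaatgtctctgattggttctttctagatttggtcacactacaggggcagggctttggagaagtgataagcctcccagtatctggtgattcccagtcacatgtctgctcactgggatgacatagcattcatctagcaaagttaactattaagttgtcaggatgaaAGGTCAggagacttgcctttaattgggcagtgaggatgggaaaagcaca
Abcb1b, chr5:8797897-8798146, plus strand: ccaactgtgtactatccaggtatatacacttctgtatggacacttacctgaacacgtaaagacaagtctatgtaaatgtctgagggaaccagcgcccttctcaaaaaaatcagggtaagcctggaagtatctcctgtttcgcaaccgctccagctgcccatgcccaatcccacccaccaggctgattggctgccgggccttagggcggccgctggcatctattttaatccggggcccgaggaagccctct
Abcb1a, chr5:8566841-8567090, plus strand: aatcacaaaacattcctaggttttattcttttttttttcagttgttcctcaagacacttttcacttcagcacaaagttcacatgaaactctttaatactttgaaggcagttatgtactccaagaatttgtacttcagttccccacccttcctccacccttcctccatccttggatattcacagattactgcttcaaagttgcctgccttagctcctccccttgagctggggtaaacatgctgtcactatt
Abcb4, chr5:8893471-8893720, plus strand: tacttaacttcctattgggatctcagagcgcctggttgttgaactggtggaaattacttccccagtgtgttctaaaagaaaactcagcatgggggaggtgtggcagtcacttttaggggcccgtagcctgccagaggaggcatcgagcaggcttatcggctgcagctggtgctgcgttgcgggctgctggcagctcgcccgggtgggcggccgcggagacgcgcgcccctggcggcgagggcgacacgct
The window of Abcc2 held 1 half-site, 49 bases before the start, and 1 match, not in capitals, to the antioxidant response element core TGACNNNGC, which did not overlap it. The windows of Abcb1b, Abcb1a and Abcb4 held neither.

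None of the uptake carriers passed the adjusted threshold. Of the 6 carriers 4 were tested, and 3 of these had a lower signal in hCNR1-/- mice. Slco1b2 (OATP1B2), which takes up unconjugated bile acids, bilirubin and many drugs, had relative log2 signals of 0.40, 0.98, 0.11 and 1.41 in hCNR1+/+ and 1.31, 2.78, 3.32 and 2.31 in hCNR1-/- mice. Replicates 2 to 4 of hCNR1-/- were above all hCNR1+/+ arrays, and replicate 1 lay just under the highest hCNR1+/+ array. The difference of 1.70 (SE 0.44) was 3.26-fold, with an unadjusted limma p of 0.00358, an adjusted p of 0.0628 and an exact permutation p of 0.0571. Its adjusted p ran from 0.00792 to 0.817 over 19 alternatives and was below 0.05 in 1 of them, the weights for each array, and it was 0.0561 without hCNR1-/- replicate 4.

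Slc10a1 (NTCP), the sodium-dependent carrier for conjugated bile acids, had signals of 10.23, 10.37, 10.17 and 10.69 in hCNR1+/+ and 9.23, 9.46, 9.31 and 10.45 in hCNR1-/- mice. Replicates 1 to 3 of hCNR1-/- were below all hCNR1+/+ arrays, and replicate 4 was among them. The difference was −0.75 (SE 0.30), with an unadjusted limma p of 0.0299, an adjusted p of 0.178 and an exact permutation p of 0.114. Without hCNR1-/- replicate 4 it was −1.03, with an adjusted limma p of 0.0149. A second, dimmer probe of Slc10a1 read 0.50, 0.66, 0.58 and 1.83 in hCNR1+/+ and 0.96, 0.59, 0.55 and 0.68 in hCNR1-/- mice, a difference of −0.20, and there the genotypes overlapped on most arrays. Slco2b1 differed by −0.46 and −0.52 on its 2 probes, and the organic anion carrier Slc22a7 by −0.54 with a 95% interval of −1.95 to 0.87.

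The windows of the uptake carriers with an unadjusted p below 0.05 are shown in the same way; Slc10a1 has 2 annotated starts, and that of the first is given.
Slco1b2, chr6:141629268-141629517, plus strand: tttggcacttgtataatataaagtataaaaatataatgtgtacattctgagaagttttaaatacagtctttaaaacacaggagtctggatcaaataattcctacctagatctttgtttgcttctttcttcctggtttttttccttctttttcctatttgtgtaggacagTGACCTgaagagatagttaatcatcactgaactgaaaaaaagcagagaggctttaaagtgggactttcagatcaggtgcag
Slc10a1, chr12:80968706-80968955, minus strand: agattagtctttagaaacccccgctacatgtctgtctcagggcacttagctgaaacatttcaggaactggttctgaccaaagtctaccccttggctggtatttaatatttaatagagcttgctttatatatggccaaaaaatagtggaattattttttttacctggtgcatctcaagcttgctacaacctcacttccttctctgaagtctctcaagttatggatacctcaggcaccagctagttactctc
Slco1b2 held 1 half-site on the opposite strand, 81 bases before the start. This window of Slc10a1 held none, but the window of its other annotated start, not shown, did hold AGGTCA on either strand. Over 32851 promoters, 14% had AGGTCA and 10.2% had TGACNNNGC on either strand. Of the 36 windows listed for 28 genes of the group, 13 windows of 12 genes had the former and 5 windows of 4 genes had the latter. Such a match is a description of the letters and not of binding.

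Bile acid synthesis showed no gene past any threshold. Of its 10 members 8 were tested, 7 with a lower and 1 with a higher signal in hCNR1-/- mice (8 and 0 under 3 of 6 other ways of scaling or correcting the values), and the median log2 fold change was −0.18 with a range of −0.64 to 0.11. Cyp7a1 could not be compared, since its signal was at −5.37, −3.96, −4.80 and −4.10 in hCNR1+/+ and −5.12, −4.24, −4.45 and −2.84 in hCNR1-/- mice, not well above background on any array. Cyp8b1, which directs synthesis to cholic acid, had signals of 0.82, 1.25, 1.14 and 0.26 in hCNR1+/+ and 0.79, 0.47, 0.35 and 0.71 in hCNR1-/- mice. The genotypes overlapped, with a difference of −0.29 (95% interval −0.86 to 0.28, adjusted limma p 0.547).

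Cyp27a1, the mitochondrial enzyme that oxidises the sterol side chain, had signals of 4.05, 4.14, 3.96 and 4.31 in hCNR1+/+ and 3.98, 4.12, 3.83 and 3.97 in hCNR1-/- mice. The difference was −0.14 with a 95% interval of −0.56 to 0.27. The lowest fold change of the synthesis genes was that of Cyp7b1, the oxysterol hydroxylase of the alternative pathway, at −0.64 (95% interval −1.36 to 0.08, adjusted limma p 0.281). The sterol dehydrogenase Hsd3b7 differed by −0.19, the racemase Amacr by −0.17, the peroxisomal thiolase and sterol carrier Scp2 by −0.20 (−0.19 on its second probe) and the peroxisomal transporter Abcd3 by −0.12. The conjugating enzyme Baat differed by 0.11, and it was the gene whose sign turned under those 3.

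The basolateral exporters carry bile acids back to blood. Abcc3 (MRP3) ranged from 7.38 to 7.75 among hCNR1+/+ and from 7.48 to 7.89 among hCNR1-/- mice, a difference of 0.15 with a 95% interval of −0.28 to 0.59. Slc51b, the smaller subunit of the exporter OSTα-OSTβ, differed by 0.33 (adjusted limma p 0.618) on a dim probe, and no array had its partner Slc51a well above background. The signs of Abcc3 and Slc51b turned without scaling, and that of Abcc3 also with quantile normalisation. Slc22a5, the carnitine carrier, differed by −0.36 (adjusted limma p 0.576), with hCNR1-/- replicate 4 at −1.39 and the other 7 arrays between −0.14 and 0.28.

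Of the 7 regulators 5 were tested and none passed the adjusted threshold. The genotypes did not overlap for 2 that were higher and 1 that was lower, where 17.8% of all tested genes did not overlap, 12.7% higher and 5.04% lower. Fgfr4, the receptor for Fgf15, had signals of 3.93, 5.03, 4.78 and 5.04 in hCNR1+/+ and 5.52, 5.78, 5.21 and 5.90 in hCNR1-/- mice. The difference was 0.91 (SE 0.29), with an adjusted limma p of 0.113. Its second probe also did not overlap, at 0.16 to 1.33 in hCNR1+/+ and 1.38 to 1.85 in hCNR1-/- mice.

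Nr5a2 (LRH-1), a nuclear receptor that activates bile acid synthesis genes, had signals of 0.18, −0.73, −0.03 and −0.22 in hCNR1+/+ and 0.60, 0.38, 0.46 and 1.77 in hCNR1-/- mice. All hCNR1-/- arrays were above all hCNR1+/+ arrays, and replicate 4 stood apart from the other 3. The difference of 1.00 (SE 0.35) had an adjusted limma p of 0.133, and it was 0.68 with an adjusted limma p of 0.0845 without that array. A second, dimmer probe of Nr5a2 differed by 0.19 and overlapped, and with the mean of its probes the difference was 0.60 (adjusted limma p 0.132). Nr1i2 (PXR), a receptor for drugs and bile acids, had signals of 2.49, 2.30, 2.44 and 2.33 in hCNR1+/+ and 2.13, 2.06, 2.12 and 1.71 in hCNR1-/- mice. It was the gene of the group whose genotypes did not overlap in the lower direction, but the difference of −0.39 (SE 0.19) had an adjusted limma p of 0.269, and without hCNR1-/- replicate 4 it was −0.29 (0.182).

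Nr1h4 (FXR) had signals of 3.68, 3.39, 3.19 and 2.64 in hCNR1+/+ and 3.82, 3.46, 3.72 and 2.78 in hCNR1-/- mice. Replicate 4 was the lowest array of both genotypes, and the groups overlapped. The difference was 0.22 with a 95% interval of −0.46 to 0.91, and it was −0.34 without scaling between arrays. The xenobiotic receptor Nr1i3 (CAR) differed by −0.10 and −0.07 on its 2 probes. Nr0b2 (SHP), a target of FXR that represses Cyp7a1, had signals of −2.94, −2.58, −2.92 and −1.11 in hCNR1+/+ and −3.53, −3.32, −4.69 and −2.87 in hCNR1-/- mice. Only the highest of these, hCNR1+/+ replicate 4, was well above background, and no fold change is given.

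**Figure D3:**
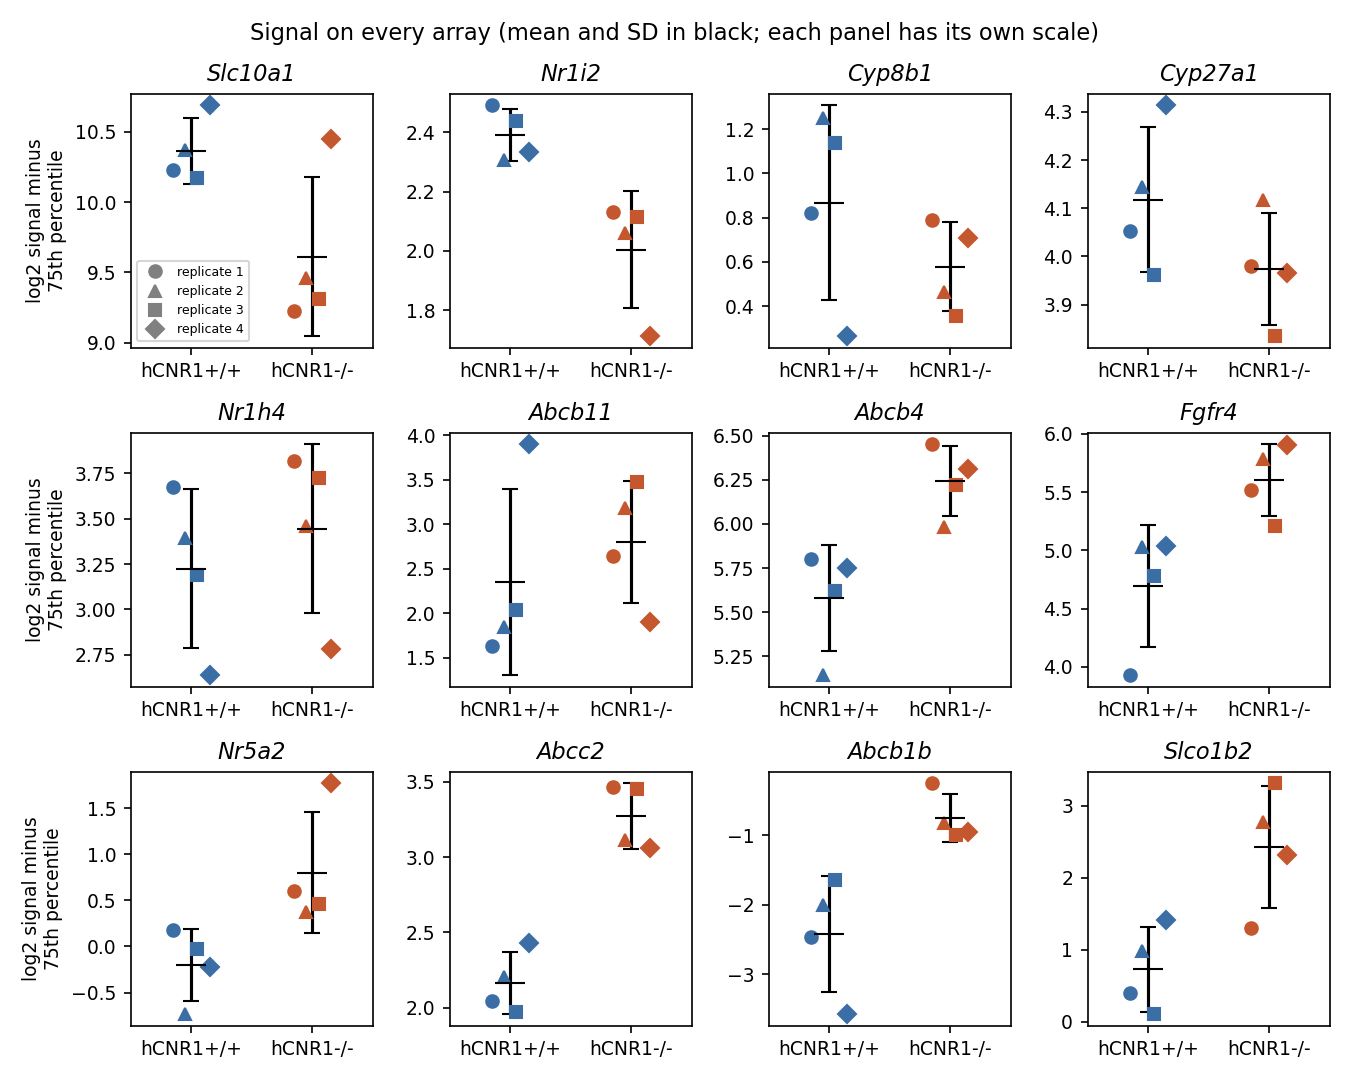
Relative log2 signal on every array for the 12 tested genes whose values are given in full (points, shaped by replicate), with the mean and SD of each genotype (black), on separate scales. Abcc2, Abcb1b, Abcb4, Fgfr4 and Nr5a2 have all hCNR1-/- points above the hCNR1+/+ points and Nr1i2 has all of them below, while replicate 4 of hCNR1-/- stands at 10.45 for Slc10a1 among the controls.

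A wider list of 66 genes of bile acid metabolism, bile secretion and their regulation, none of them in the group above, held 50 tested genes. At an adjusted p below 0.05, 2 rose and 1 fell, or 6% of those tested, beside 4.24% of all tested genes, 2.94% higher and 1.3% lower. A fold change above 2 with an unadjusted limma p below 0.05 was met by 5 that were higher and 1 that was lower. That was 12% of those tested, beside 8.53% of all tested genes, 4.78% higher and 3.75% lower. The signal was higher for 30 genes and lower for 20. The median log2 fold change was 0.14, beside 0.08 over all tested genes. Abcc1 (MRP1), an exporter of glutathione conjugates, stood well above background on every hCNR1+/+ array, at −1.22, −1.08, −0.55 and 0.48, and on none of the hCNR1-/- arrays, at −2.94, −1.92, −2.68 and −2.86. On the background-corrected intensities as deposited, its signal was at least 2.83-fold lower in hCNR1-/- mice. This bound takes, on each hCNR1-/- array, the higher of its own signal and the dimmest signal well above background. The bound depends on that background correction. The adjusted limma p was 0.0303, but the gene entered the test only through the genotype where it is high, and without the filter on dim probes the adjusted p was 0.129. With normexp background correction the log2 fold change was −0.53 (adjusted limma p 0.468), a smaller difference than that bound. Sult2a8, a bile acid sulfotransferase, rose from 0.92, 0.97, 0.47 and 0.59 to 1.62, 2.22, 2.91 and 2.0, with a log2 fold change of 1.45 (SE 0.29) and an adjusted limma p of 0.0310. For Abcc1 and Sult2a8 the genotypes did not overlap. Their calls were lost when single arrays were left out: Abcc1 without hCNR1+/+ replicate 2 (adjusted limma p 0.0545) or 3 (0.102) or hCNR1-/- replicate 1 (0.0901) or 3 (0.0885) and Sult2a8 without hCNR1+/+ replicate 1 (0.0594), 2 (0.063), 3 (0.108) or 4 (0.0628) or hCNR1-/- replicate 2 (0.0752) or 3 (0.0724). The adjusted p was also above 0.05 for Abcc1 with quantile normalisation (0.0872), median scaling (0.114), no scaling (0.111) and z-scores (0.0875), and for Sult2a8 with the percentile over bright probes (0.0512), median scaling (0.335), no scaling (0.817), normexp (0.21), z-scores (0.107) and no filter (0.147). The aquaglyceroporin Aqp9 (log2 fold change 1.25, adjusted limma p 0.0530), the coactivator Med1 (1.19, adjusted p 0.0950) and the sulfotransferase Sult1d1 (1.74, adjusted p 0.196) were more than 2-fold higher with an unadjusted p below 0.05 only. Med1 was at 0.45 with the mean of its probes and 0.64 without scaling, Aqp9 at 0.67 with normexp and 0.70 without scaling, and Sult1d1 ranged from 1.18 without hCNR1+/+ replicate 4 to 2.30 without hCNR1+/+ replicate 1. The genotypes overlapped for Sult1d1, at 3.08, 2.03, 0.74 and −0.29 in hCNR1+/+ and 2.73, 2.08, 3.49 and 4.21 in hCNR1-/- mice. For Aqp9 and Med1 they did not overlap.

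Genes of other cell types and of liver zones were compared between the genotypes as well. Of all 11072 tested genes, 4808 had a lower signal in hCNR1-/- mice. At the adjusted threshold 1.3% of all tested genes were lower and 2.94% were higher. Of 12 Kupffer cell and macrophage genes 10 were tested, all 10 with a lower signal in hCNR1-/- mice and 2 of them past the adjusted threshold, and their mean relative log2 signal spanned 1.39 to 2.59 among hCNR1+/+ and 0.23 to 1.12 among hCNR1-/- mice. All 7 periportal hepatocyte genes were lower, 2 of them past the threshold, with means of 5.30 to 6.37 and 4.30 to 5.0, and 4 of 5 tested pericentral genes were lower (5 under some other scalings), 1 past the threshold, with means of 4.80 to 5.94 and 4.19 to 5.03. Of 12 cholangiocyte genes 4 were tested, with means of 0.29 to 1.05 in hCNR1+/+ and 0.31 to 1.36 in hCNR1-/- mice, while the defining markers Krt19, Krt7 and Epcam did not reach 4 arrays well above background. Both tested lymphocyte genes of 8 were higher (1 of them without scaling between arrays), with means of 2.25 to 2.77 and 2.68 to 4.04, and so was the 1 tested neutrophil gene of 6, at 2.91 to 3.29 and 3.48 to 4.36. Of 12 endothelial genes 10 were tested, with means of 0.04 to 0.75 and 0.05 to 0.44, and of 9 stellate cell genes 2 were tested, with means of 1.65 to 1.95 and 0.84 to 1.82. No gene of the cholangiocyte, lymphocyte, neutrophil, endothelial and stellate cell lists passed the adjusted threshold. The part of these differences in the values of the bile acid and transport genes was not tested.

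**Figure D4:**
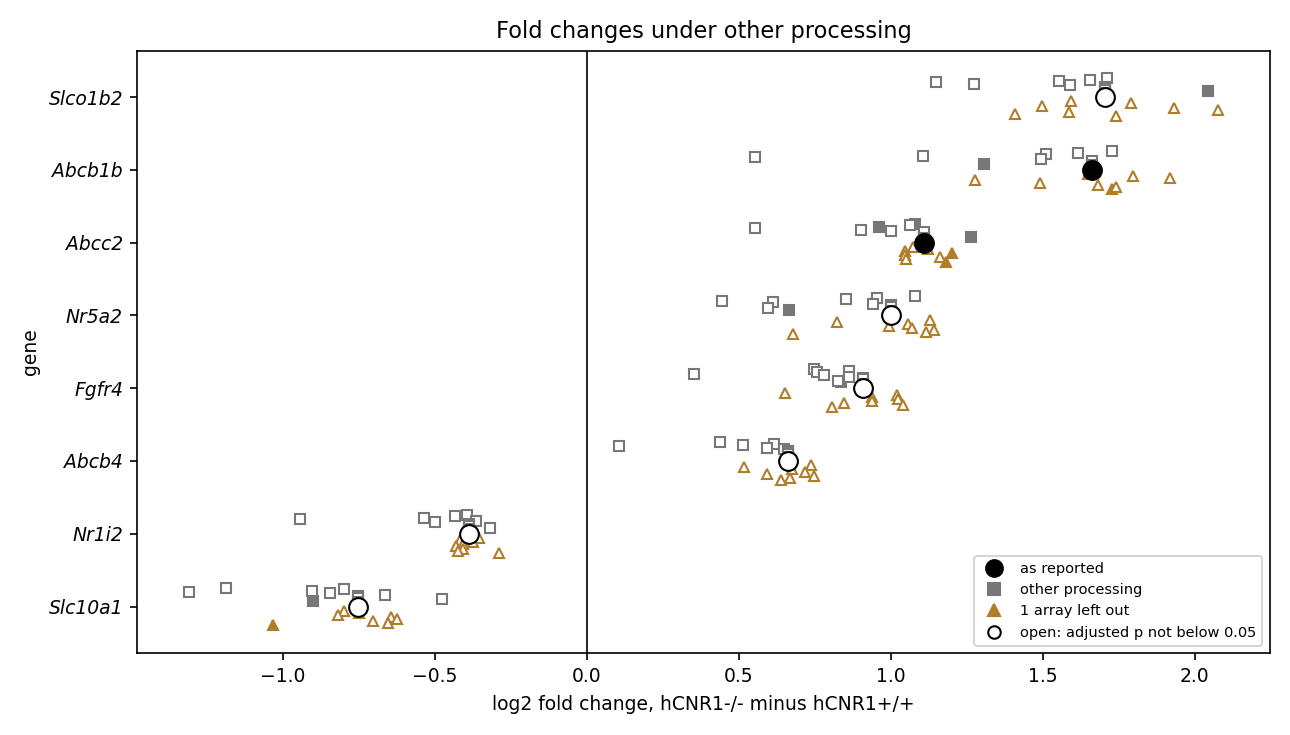
Log2 fold change, hCNR1-/- minus hCNR1+/+, of the 8 genes of the group with an unadjusted p below 0.05 or no overlap, as reported (circles), under other processing (squares) and with 1 array left out (triangles), filled where the adjusted p was below 0.05. Directions were kept in every setting shown, and Abcc2 was filled in 7 of 19 alternatives and Abcb1b in 3 of 18.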

How the data were processed

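Array RNA was measured in 8 mice, 4 per genotype, grouped by the sample labels. The authors deposited spot intensities from the Feature Extraction software (version 12.0.3.1), corrected for background within each array and not scaled between arrays. The score that the authors deposited for each spot, which lies within 0.005 of a z-score of log intensity, was an alternative. From the log2 intensities of an array, the 75th percentile over its 59305 non-control spots was subtracted. Outlier spots were dropped and spots of a probe averaged. A probe was well above background where at least 50% of its spots carried the flag. RefSeq (GRCm38.p6) gave a gene name to 28331 of 55681 probes through accessions, versions left off. Genes reaching this on 4 or more of the 8 arrays were tested with their brightest probe in limma (version 3.58.1, R version 4.3.3), two-sided, with Benjamini-Hochberg adjustment over 11072 genes, and the script was tested on simulated data. Single genes had an exact two-sided permutation test over 70 assignments. Thresholds were an adjusted p below 0.05 and, as in the study, a fold change above 2 with p below 0.05. A bound was used where a genotype had no array well above background.

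The members, the wider list and the marker lists were chosen with earlier results of these data known. Full array values are given for members with an unadjusted p below 0.05 or without overlap, and for Cyp7a1, Cyp8b1, Cyp27a1, Slc10a1, Abcb11, Nr1h4 and Nr0b2; genes of the wider list are named past either threshold, except 1 that is counted but not reported here. Promoter windows were listed for 28 members. Alternatives were other scalings, background correction (normexp with an offset of 50, on the median spot signal), filters, probe averaging, array weights, a replicate block and each array left out. Precision is limited by 4 arrays per genotype.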

Additional observations from a re-analysis of the deposited data

Results flagged for a closer look

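Each genotype of each tested gene was examined for an array far from the other 3 by Dixon's criterion, and 3 of 52 groups passed it, where chance alone passes about 1 in 20. All 3 were hCNR1-/- replicate 4, the dimmest array. Baat was at −0.69 on that array and at 0.75 to 0.88 on the other hCNR1-/- arrays. Nr1i2 was at 1.71 against 2.06 to 2.13. Nr5a2 was at 1.77 against 0.38 to 0.60, in the opposite direction to the other 2 genes.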

How the results depend on the processing

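The number of bile acid and transport genes higher at an adjusted p below 0.05, 2 as reported, was 1 with quantile normalisation, with the percentile over bright probes and with only the probes flagged on all 8 arrays, 0 with median scaling, no scaling, normexp, the deposited z-scores, no filter and the replicate block, and 8 with array weights. The number lower, 0 as reported, was 1 with array weights. At a fold change above 2 with p below 0.05, the 4 higher became 2 with the percentile over bright probes, 0 without scaling and 1 with normexp, and the 0 lower became 1 with quantile normalisation, 2 without scaling and 1 without a filter. The median log2 fold change of the group, −0.11, was −0.669 without scaling, which shifted the median of all genes by −0.556. The percentile over bright probes shifted it by −0.149 and the z-scores by −0.101. Relative to the median of all genes, 11 or 12 of the 26 genes lay above it under every scaling. Abcb11 was at −0.107 and Nr1h4 at −0.335 without scaling. With each array left out, the group had 0 to 2 higher and 0 to 1 lower at the adjusted threshold, 3 to 5 higher and 0 to 1 lower at the fold threshold, and a median of −0.167 to 0.096. The 1 lower gene was Slc10a1 without hCNR1-/- replicate 4. Over all genes, as reported 144 lower and 325 higher at the adjusted threshold, the counts were 85 and 134 with quantile normalisation, 25 and 25 with median scaling, 29 and 1 without scaling, 13 and 28 with normexp, 51 and 30 with z-scores, 14 and 8 without a filter and 646 and 2176 with array weights, 101 higher with bright probes and 54 lower on all 8 arrays. They were 25 to 323 lower and 13 to 1121 higher with an array left out, both highest without hCNR1-/- replicate 4 and both lowest without hCNR1+/+ replicate 3. The counts at the fold threshold, 415 lower and 529 higher, were 329 to 478 and 464 to 616 with an array left out, 624 lower with bright probes, 630 and 87 without scaling, 107 and 145 with normexp and 145 and 324 on all 8 arrays. The share lower among these was 44.0% as reported, 63.0% with bright probes, 87.9% without scaling and 53.9% with z-scores. Whether the replicate numbers pair the mice was not settled, and the reported fit did not pair them. The deviations of same-numbered arrays correlated at 0.211, −0.157, −0.0526 and 0.0172. With 4 arrays per genotype such values cannot exclude a pairing. With the replicate block 0 genes were lower and 0 higher at the adjusted threshold, and 4 genes of the group were still higher at the fold threshold. Some settings hold fewer or more genes, or fewer arrays, and the cause of the changes between settings was not tested. Signal over background limited the 10 genes that were not tested.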
